A study of Mus musculus with 15 samples.

Results

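The genes described are the nuclear genes of the mitochondrial respiratory chain, chosen from the deposited count table by symbol. The rule took the Nduf genes of the series a, b, c, s and v, Sdha to Sdhd, the named Uqcr genes and the ubiquitous forms of the Cox subunits. It found 58 genes among the 24060 entries, and all 58 passed the filter on low counts that left 15460 tested genes. By the complex they are assigned to here, 35 belong to complex I, 4 to complex II, 8 to complex III and 11 to complex IV. Ndufa4 is named for complex I but is a subunit of complex IV, and it is placed there.

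The respiratory chain passes electrons from NADH and succinate to oxygen and pumps protons across the inner mitochondrial membrane, and ATP synthase uses the proton gradient to make ATP. Complex I oxidises NADH, complex II oxidises succinate, complex III carries electrons from ubiquinol to cytochrome c, and complex IV reduces oxygen. In pancreatic beta cells, ATP made from glucose closes potassium channels in the cell membrane and thereby couples glucose to insulin secretion. Most subunits are encoded in the nucleus, and the mitochondrially encoded subunits were not analysed here.

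RNA was measured in bulk islets, the endocrine cell clusters of the pancreas, isolated from FVB/NJ mice aged 9 to 10 weeks. There were 5 groups of 3 libraries each. The hIAPP mice carried a human islet amyloid polypeptide transgene driven by the insulin II promoter, which is active in beta cells. The rIAPP mice carried a rodent IAPP transgene under the same promoter. Human IAPP can aggregate into amyloid, and rodent IAPP does not. The hIAPP_hCAST mice carried the human IAPP transgene together with human CAST, which encodes the calpain inhibitor calpastatin and was under an insulin promoter. The hCAST mice carried human CAST under the insulin II promoter, and the WT mice carried no transgene per the labels. The labels do not say whether each library came from a separate animal, so p-values measure the spread between these libraries, which may be technical. The numbers in the sample titles fall into separate ranges for WT with hCAST, for hIAPP with hIAPP_hCAST, and for rIAPP. Whatever those ranges stand for cannot be told apart from the IAPP transgenes. Reads of the transgenes themselves were not analysed here.

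Total counts ranged from 28287011 to 40191501 per library. The 58 genes held 31155 to 163333 counts in 14 libraries and 4834 in WT 2, where 94.3% of all counts fell on Rn45s, Mir6236 and Lars2, called ribosomal-rich here. Those genes also held 68.9% in WT 3 and 67.7% in rIAPP 2, against at most 11.8% in the other 12 libraries. WT 2 had the lowest level of all libraries for 32 of the 58 genes. Its median deviation over the 58 genes from their means over all libraries was -0.26 on the log2 scale, against -0.05 to 0.09 in the other 14 libraries. Each comparison with WT is therefore also given without WT 2, or without WT 2, WT 3 and rIAPP 2 together. The last of these leaves WT 1 as the only WT library beside 2 of rIAPP, so WT 1 is assumed to vary like the libraries of the other groups, and what that fit calls or loses supports nothing on its own. In bulk islets, fewer cells of a type and less RNA per cell cannot be told apart.

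The summed level of the chain in each transgenic group overlapped that in WT. The summed level of the 58 genes was 2408 ± 79.5 CPM (counts relative to library size, scaled by TMM) in hIAPP, 2281 ± 21.8 in rIAPP, 2423 ± 124 in hIAPP_hCAST, 2459 ± 77.1 in hCAST and 2342 ± 195 in WT (SD, n = 3 each). With the ribosomal-rich genes set aside, the 58 genes held 0.325% to 0.382% of the counts in hIAPP, 0.328% to 0.342% in rIAPP, 0.332% to 0.408% in hIAPP_hCAST, 0.332% to 0.367% in hCAST and 0.290% to 0.361% in WT. The ranges of hIAPP and WT overlapped, and so did those of the other groups with WT. The median coefficient of variation of a gene between the libraries of a group was 3.99% in hIAPP, 4.77% in rIAPP, 7.83% in hIAPP_hCAST, 3.97% in hCAST and 13.8% in WT.

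Levels between genes are compared per length, as CPM per kilobase averaged over all 15 libraries with the SD over them. Of the 58 genes, 51 lay between 10 and 100 CPM per kilobase, 6 above and 1 below. Complex IV genes had the highest median level, 81.2 CPM per kilobase, followed by complex III at 44.9, complex II at 36.9 and complex I at 32.9. In complex I, the accessory subunit Ndufa6 was among the highest at 97.7 ± 6.91 CPM per kilobase. In complex II, Sdha, the flavoprotein that oxidises succinate, was highest at 55.6 ± 3.40 CPM per kilobase. Sdhc, a membrane anchor, was lowest there at 19.6 ± 1.90. In complex III, Uqcrb at 117 ± 22.2 and the hinge protein gene Uqcrh at 116 ± 7.12 CPM per kilobase did not differ beyond their spread, and Uqcrfs1, which encodes the Rieske iron-sulfur protein, was lowest at 24.4 ± 3.3. In complex IV, Cox8a was highest at 184 ± 16.3 and Cox5a lowest at 20.0 ± 3.73 CPM per kilobase.

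Ndufs5, an accessory subunit of complex I, stood apart at 0.446 ± 0.252 CPM per kilobase, with 0 to 19 counts per library. A gene of near-identical sequence, BC002163, matched 99.4% of 319 aligned transcript bases and had 36 to 743 counts. Ndufs5 held 2.11% of the counts of both genes, so its level here is uncertain. In all, 7 of the 58 genes had at least 1 near-identical annotated gene, namely Cox7c, Ndufa12, Ndufb11, Ndufs3, Ndufs5, Ndufs6 and Uqcrb. A further limit is that 26 of the 58 overlap another annotated gene, and the strand setting of the counting is not known.

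**Figure D1:**
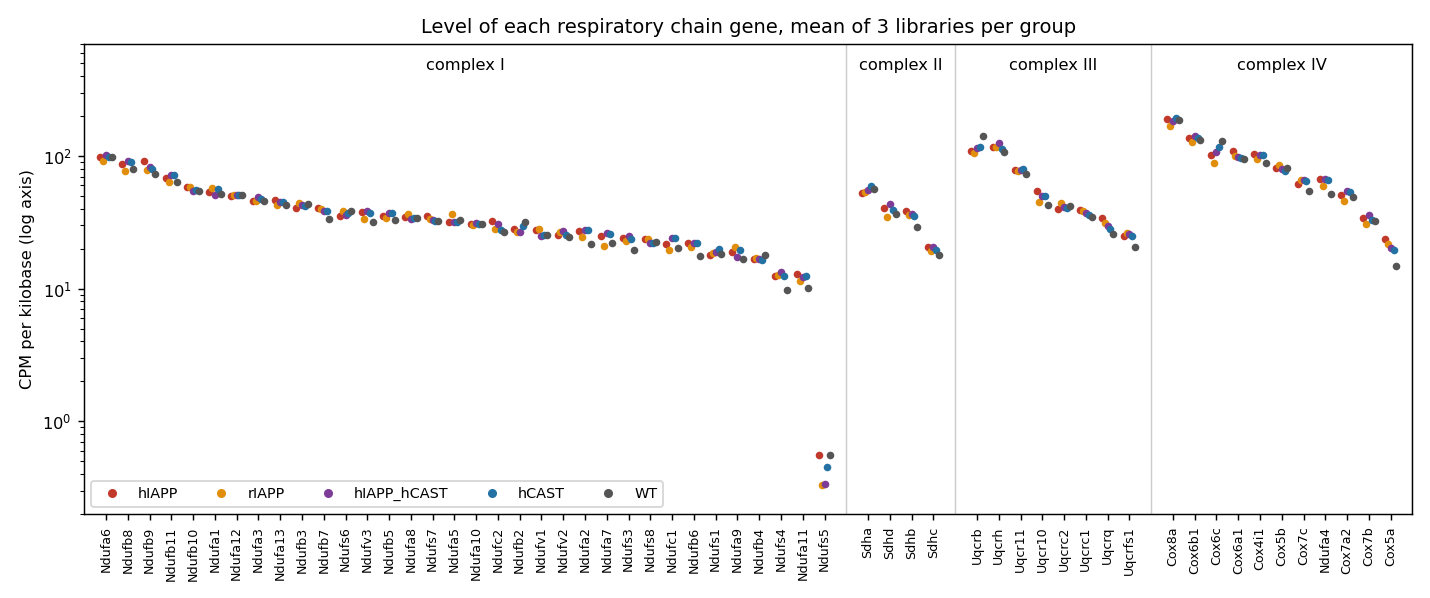
Level of 57 of the 58 genes in CPM per kilobase (log axis), grouped by complex and ordered by level; each point is the mean of the 3 libraries of a group. The 5 groups lie close together for most genes, Ndufs5 lies below 1 CPM per kilobase, and the levels of Cox6c, Uqcrb and Cox5a are spread more widely between groups.

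Promoter sequence was available in RefSeq (GRCm38.p6) for 48 of the 58 genes, from 250 bases before to 50 bases after the transcription start. NRF1 is a transcription factor known for its sites in many respiratory chain genes. Its palindrome of GC-rich letters, shown in capitals in the promoters below and searched on both strands with any base in its centre, was found in 11 of the 48 promoters (22.9%), against 4.78% of the 27025 promoters of all genes with an entry. The YY1 motif was found in 4 of 48 (8.33%) and in 1.07% of all promoters. The GABPA motif CCGGAAGTG was found in 4.17% of the 48 and 2.06% of all, the ESRRA motif CAAGGTCA in 4.17% and 1.53%, the SP1 motif GGGGCGGGG in 12.5% and 11.6%, and CCAAT in 37.5% and 37.9%. These shares describe letters in a window and do not show binding.

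The 200 bases before the RefSeq start are shown first for 3 genes that passed a test below. Cox5a lies at chr9:57521032-57521231 (plus strand), Ndufa4 at chr6:11907451-11907650 (minus strand) and Sdhb at chr4:140961071-140961270 (plus strand). None of these 3 windows held a match to the NRF1, GABPA, YY1 or ESRRA motif, which says only that those letters are not there.
Cox5a: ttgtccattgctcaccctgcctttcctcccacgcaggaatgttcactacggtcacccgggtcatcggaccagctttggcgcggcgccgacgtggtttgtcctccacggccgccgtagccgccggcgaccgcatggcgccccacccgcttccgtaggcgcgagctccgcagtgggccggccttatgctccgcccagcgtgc
Ndufa4: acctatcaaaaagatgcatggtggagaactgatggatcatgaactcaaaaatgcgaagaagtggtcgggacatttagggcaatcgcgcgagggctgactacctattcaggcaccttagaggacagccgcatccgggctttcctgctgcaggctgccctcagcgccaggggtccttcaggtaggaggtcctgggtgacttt
Sdhb: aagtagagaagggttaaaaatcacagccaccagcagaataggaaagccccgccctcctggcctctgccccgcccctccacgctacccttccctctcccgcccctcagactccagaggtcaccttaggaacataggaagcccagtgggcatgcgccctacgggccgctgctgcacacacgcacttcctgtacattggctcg

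For complexes I, II and IV, the gene with the highest level per kilobase among those with an NRF1 match before the start is shown next, with the match in capitals. Ndufs6 lies at chr13:73328483-73328682, Sdha at chr13:74350241-74350440 and Cox6a1 at chr5:115348959-115349158, all on the minus strand. Sdha held 3 matches, Cox6a1 held 2 and Ndufs6 held 1. None of these 3 genes passed a test in any comparison. Only 11 of the 48 promoters held an NRF1 match, and Cox6c and Ndufb9, which passed a test, had no promoter entry. A link between the motif and the calls was not tested.
Ndufs6: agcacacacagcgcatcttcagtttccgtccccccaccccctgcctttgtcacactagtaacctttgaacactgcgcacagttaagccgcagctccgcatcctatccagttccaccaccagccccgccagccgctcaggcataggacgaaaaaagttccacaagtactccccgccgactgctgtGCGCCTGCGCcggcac
Sdha: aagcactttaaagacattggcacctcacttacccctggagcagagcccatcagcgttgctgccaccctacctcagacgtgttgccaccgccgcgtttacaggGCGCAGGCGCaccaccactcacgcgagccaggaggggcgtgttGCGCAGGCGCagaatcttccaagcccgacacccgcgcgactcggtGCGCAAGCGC
Cox6a1: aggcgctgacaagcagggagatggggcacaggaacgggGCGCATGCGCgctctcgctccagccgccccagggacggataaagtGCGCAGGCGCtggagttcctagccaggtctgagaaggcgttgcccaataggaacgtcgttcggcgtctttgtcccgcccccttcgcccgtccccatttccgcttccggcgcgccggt

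The comparison of hIAPP with WT asks what the human IAPP transgene changes. Of the 58 genes, 4 were higher in hIAPP, where 6.27% of all tested genes were, and 1 was lower, where 5.59% were (edgeR quasi-likelihood test, Benjamini-Hochberg over all tested genes, adjusted p below 0.05), and 53 did not pass. Over all tested genes the called share was 11.9%, against 8.62% of the respiratory chain genes. The median log2 fold change of the 58 genes was 0.08, against 0.02 over all tested genes. The higher genes were Cox5a, Ndufa4, Sdhb and Ndufb9, and the lower one was Cox6c. Complex I had 1 call among 35 genes, complex II 1 among 4, complex III 0 among 8 and complex IV 3 among 11. The libraries of the compared groups did not overlap for 16 of the 58 genes, where 33.1% of all tested genes did not overlap.

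Ndufb9, an accessory subunit in the membrane arm of complex I, had 54.9, 63.3 and 62.3 CPM in hIAPP 1, 2 and 3, against 53.4, 39.8 and 50.7 CPM in WT 1, 2 and 3. All 3 hIAPP libraries lay above the WT libraries, by a small margin between hIAPP 1 and WT 1. Its log2 fold change was 0.28 ± 0.0885 (SE, adjusted p = 0.0478). Its annotated span, on chromosome 15 of GRCm38 from 58933756 to 58939488, overlaps the gene Gm49356 on the same strand.

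Sdhb carries the iron-sulfur clusters of complex II and had 40.6, 40.4 and 42.3 CPM in hIAPP, against 36.1, 25.8 and 31.7 CPM in WT. The groups did not overlap, and the WT libraries were the more spread. Its log2 fold change was 0.34 ± 0.104 (adjusted p = 0.0429). The gene lies on chromosome 4 from 140961203 to 140979193.

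Cox5a, a complex IV subunit on the matrix side, showed the largest log2 fold change among the 58 genes in this comparison, 0.55 ± 0.136 (adjusted p = 0.0171). It had 15.1, 16.1 and 17.8 CPM in hIAPP, against 12.2, 7.0 and 11.4 CPM in WT. All hIAPP libraries lay above all WT libraries, and WT 2 was the lowest library, where the value rests on 16 counts. Without WT 2 the log2 fold change was 0.46 (adjusted p = 0.0299). It lies on chromosome 9 from 57521274 to 57532426.

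Ndufa4 had 32.9, 33.3 and 33.2 CPM in hIAPP, against 30.6, 22.8 and 22.6 CPM in WT. The hIAPP libraries were nearly equal and lay above all WT libraries. Its log2 fold change was 0.34 ± 0.107 (adjusted p = 0.0483). It lies on chromosome 6 from 11900292 to 11907497.

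Cox6c, a small membrane subunit of complex IV, had 56.1, 46.5 and 50.5 CPM in hIAPP, against 56.7, 71.4 and 68.2 CPM in WT. The groups did not overlap, but hIAPP 1 and WT 1 were almost level. Its log2 fold change was -0.33 ± 0.0916 (adjusted p = 0.0274). On log2 of FPKM + 0.1, which carries the ribosomal reads in its denominator, the sign turned to 1.64, beside a median over all tested genes of 1.82 on that scale. Cox6c lies on chromosome 15 from 35925886 to 35938246 and overlaps Vps13b on the opposite strand.

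Uqcr10 of complex III came next and did not pass, at 23.0, 24.3 and 24.2 CPM in hIAPP, against 22.1, 16.6 and 18 CPM in WT (adjusted p = 0.0529). The calls depended on single libraries of both groups. Without WT 2, only Cox5a passed, and the adjusted p was 0.0677 for Cox6c, 0.0909 for Sdhb, 0.0988 for Ndufa4 and 0.103 for Ndufb9. Without WT 3 no gene was called, and without WT 1 the count was 8. Without hIAPP 3 the count was 0, without hIAPP 2 it was 1, and without hIAPP 1 it was 3. Over all genes, the fits that left out 1 library called 6.35% to 9.02%. Cox5a passed in 4 of these 6 fits, Cox6c and Ndufb9 in 2 each, and Sdhb and Ndufa4 in 1 each. With WT 1 as the only WT library, 0 of the 58 genes and 2.39% of all genes were called. With hCAST in place of WT, 0 of the 58 genes and 7.19% of all genes passed, and the log2 fold change of Ndufa4 was 0.04.

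**Figure D2:**
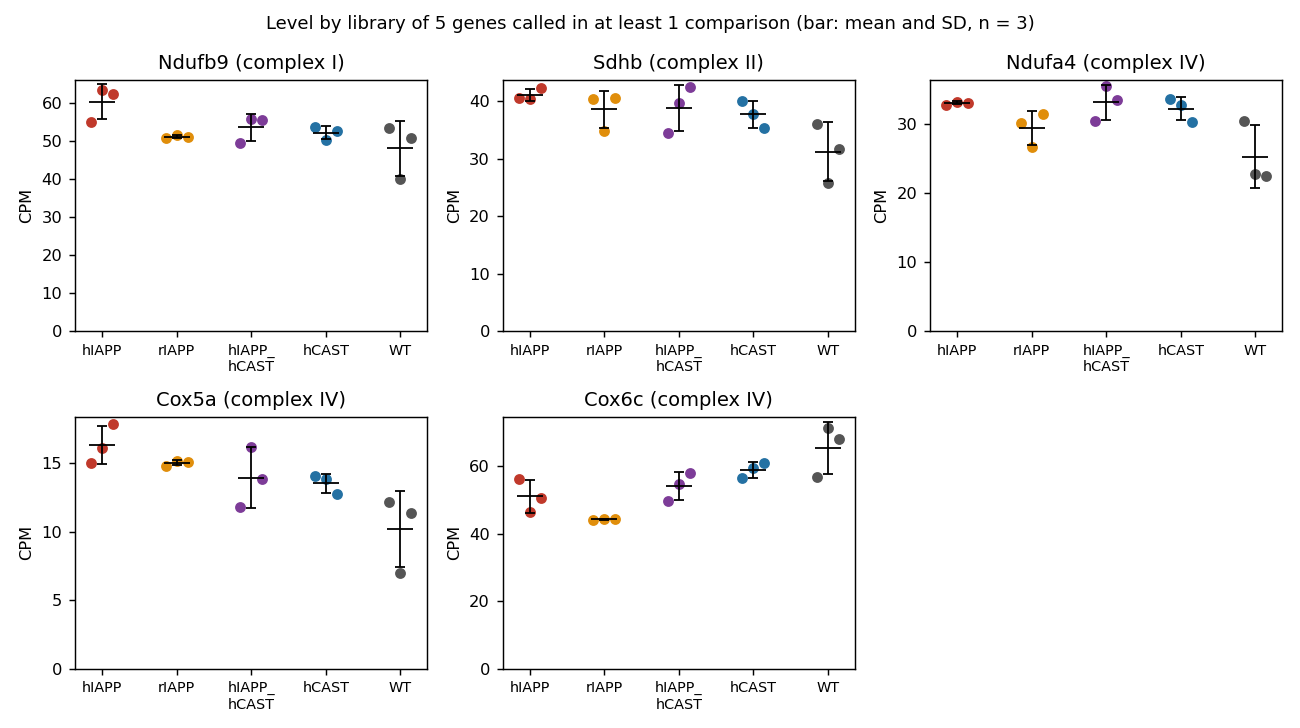
Level in CPM (linear axis from 0) of 5 genes that passed the test in at least 1 comparison; points are libraries, and bars give the mean and SD of 3 libraries per group, with hIAPP at the left and WT at the right. The WT libraries are the most spread for Cox5a, Ndufb9 and Sdhb, and the 3 rIAPP libraries of Cox6c lie between 44.1 and 44.4 CPM, below every other library.

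The comparison of rIAPP with WT asks what extra IAPP of the form that does not aggregate changes. Here 1 of the 58 genes was higher in rIAPP, 2 were lower and 55 did not pass, while 10.7% of all tested genes were higher and 12.6% lower. The called share was 5.17% of the 58 genes, where 23.3% of all tested genes were called. The median log2 fold change of the 58 genes was 0.04, against 0.01 over all tested genes. The libraries did not overlap for 10 of the 58 genes, against 40.6% of all tested genes. Complexes II and III had 0 calls. Of the 3 called genes, Cox6c and Cox5a are described.

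Cox6c was lower in rIAPP, at 44.1, 44.2 and 44.4 CPM, against 56.7, 71.4 and 68.2 CPM in WT. The rIAPP libraries were nearly identical and lay below all others of the series. The log2 fold change was -0.54 ± 0.0927 (adjusted p = 0.000443), a level 31.2% below that of WT. This call held in each of the 6 fits that left out 1 library, with log2 fold changes of -0.64 to -0.48 and a highest adjusted p of 0.00475. It also held with hCAST in place of WT (-0.42, adjusted p = 0.00260). With WT 1 as the only WT library and rIAPP 2 left out, the log2 fold change was -0.37 (adjusted p = 0.0736). On log2 of FPKM + 0.1 the sign turned to 0.88, beside a median over all tested genes of 1.27.

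Cox5a was higher in rIAPP, at 14.8, 15.2 and 15.1 CPM, against 12.2, 7.0 and 11.4 CPM in WT (log2 fold change 0.43 ± 0.138, adjusted p = 0.0341). The rIAPP libraries lay above all WT libraries. Without WT 2 the log2 fold change was 0.36 and did not pass (adjusted p = 0.0525). Without WT 2 the comparison called 0 genes higher and 3 lower, without WT 1 it called 6 genes, and without WT 3, rIAPP 1 or rIAPP 2 it called 1 each. Over all genes, these fits called 16.8% to 21.3%. With WT 1 as the only WT library and rIAPP 2 left out, 0 of the 58 genes and 9.53% of all genes were called, and the median log2 fold change over the 58 genes was -0.064. Both IAPP groups are set against the same WT libraries, so their values are not independent. Cox5a was at 0.55 in hIAPP and 0.43 in rIAPP on the log2 scale, Cox6c at -0.33 and -0.54, and Sdhb at 0.34 and 0.26 (not passing in rIAPP, adjusted p = 0.0889). The sign of Cox6c turned in both on the FPKM scales. Ndufb9 was at 0.28 and 0.05 and Ndufa4 at 0.34 and 0.18, neither passing in rIAPP.

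The comparison of hIAPP with rIAPP sets the aggregating against the other form of IAPP and does not use the WT libraries as a contrast. It does hold rIAPP 2, where 67.7% of all counts fell on the ribosomal-rich genes. None of the 58 genes passed, where 13% of all tested genes did, 7.71% higher and 5.28% lower. At an unadjusted p below 0.05 there were 8 genes (13.8%, against 24.7% of all tested genes), and DESeq2 called 1, where it called 14% of all genes. The median log2 fold change of the 58 genes was 0.08, against 0.01 over all tested genes. The libraries did not overlap for 21 of the 58 genes, and 35.5% of all tested genes did not overlap. The smallest p belonged to Uqcr10, at 23.0, 24.3 and 24.2 CPM in hIAPP and 20.6, 20.2 and 18.9 CPM in rIAPP. The libraries did not overlap, and the difference of 0.26 ± 0.0837 on the log2 scale did not pass (adjusted p = 0.0514). Without the 3 ribosomal-rich libraries the difference of Uqcr10 was 0.27. Ndufb9 differed by 0.24 ± 0.0846 (adjusted p = 0.0803) and Ndufc2, an accessory subunit of complex I, by 0.22 ± 0.0925 (adjusted p = 0.146), both without passing. Limma-voom with a weight per library, an alternative added after the data had been seen, called 4 genes and 22.5% of all genes, and the fit of only the compared groups called 3 and 18.7%.

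For Cox6c the difference between hIAPP and rIAPP was 0.21 with a 95% interval of 0.02 to 0.39 on the log2 scale (adjusted p = 0.155). For Cox5a it was 0.12, with an interval of -0.14 to 0.38. A gene that passed against WT in 1 group and not in the other is thus not shown to differ between hIAPP and rIAPP.

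**Figure D3:**
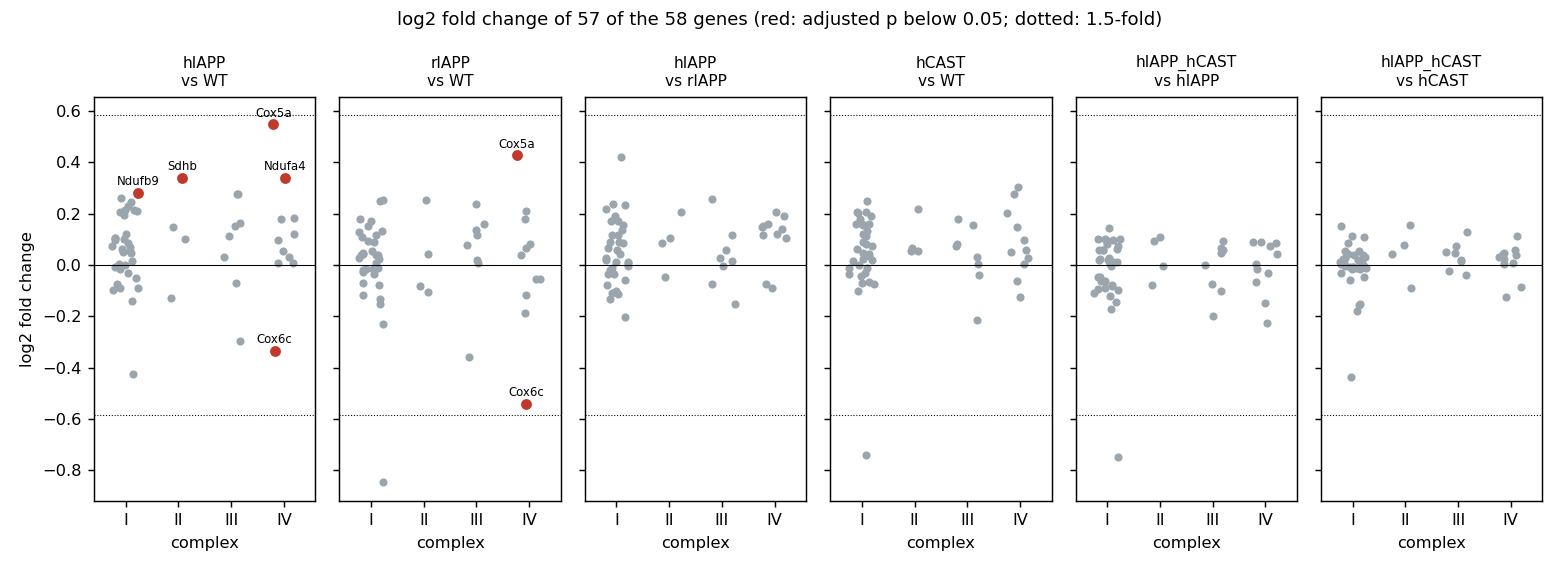
Log2 fold change of 57 of the 58 genes by complex in 6 comparisons, with genes at an adjusted p below 0.05 in red and dotted lines at a 1.5-fold difference in either direction. Named points are the 5 called genes of hIAPP against WT and Cox5a and Cox6c of rIAPP against WT; most other points lie between the dotted lines, and the points near -0.75 to -0.85 that are not red are Ndufs5. On the FPKM scales the signs of Cox6c in both comparisons turned.

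The comparison of hCAST with WT asks what calpastatin changes without human IAPP. None of the 58 genes passed, where 0.0194% of all tested genes did, all of them higher. Of the 58 genes, 3 lay at an unadjusted p below 0.05 (5.17%, against 7.33% of all tested genes), the median log2 fold change was 0.06, and the libraries of 7 did not overlap, against 14.2% of all tested genes. Leaving out WT 2, or any other single library, also gave 0 calls. The smallest p belonged to Ndufa4, at 33.7, 32.8 and 30.4 CPM in hCAST and 30.6, 22.8 and 22.6 CPM in WT. WT 1 lay above the lowest hCAST library, and the log2 fold change of 0.30 ± 0.107 did not pass (adjusted p = 0.615). Ndufb5, an accessory subunit of complex I, was at 0.16 (adjusted p = 0.663) and Cox7c of complex IV at 0.20 (adjusted p = 0.678).

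On the human IAPP background, hIAPP_hCAST against hIAPP, none of the 58 genes passed, where 0.466% of all tested genes did, 0.0906% higher and 0.375% lower. The count at an unadjusted p below 0.05 was also 0, and the median log2 fold change was 0.01. Ndufb9 had 49.5, 55.6 and 55.5 CPM in hIAPP_hCAST and 54.9, 63.3 and 62.3 CPM in hIAPP (log2 fold change -0.17 ± 0.0837, adjusted p = 0.475). Ndufv1, the flavoprotein that accepts electrons from NADH, was at -0.14 (adjusted p = 0.489) and Cox5a at -0.23 (adjusted p = 0.523). The libraries did not overlap for 3 of the 58 genes, against 15.9% of all tested genes, and those of Ndufb9, Ndufv1 and Cox5a overlapped.

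On the calpastatin background, hIAPP_hCAST against hCAST, none of the 58 genes passed either, where 0.75% of all tested genes did, 0.517% higher and 0.233% lower, and the count at an unadjusted p below 0.05 was 0. The median log2 fold change was 0.01, and the libraries did not overlap for 4 genes, against 13.3% of all tested genes. Uqcrh was at 0.13 ± 0.0632 (adjusted p = 0.560), Ndufa9 at -0.18 (adjusted p = 0.581) and Ndufb2 at -0.16 (adjusted p = 0.612), the last 2 being accessory subunits of complex I. Cox5a had 11.8, 16.2 and 13.9 CPM in hIAPP_hCAST and 14.1, 13.8 and 12.8 CPM in hCAST. The groups overlapped, in a comparison that holds none of the ribosomal-rich libraries.

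The interaction, which is the log2 difference of hIAPP_hCAST from hCAST less the log2 difference of hIAPP from WT, gave no call among the 58 genes and none among all tested genes (0%). In it, 3 of the 58 genes lay at an unadjusted p below 0.05, a share of 5.17% against 8.71% of all tested genes, and the values of those genes are given as not passing. Cox5a was at -0.51 with a 95% interval of -0.89 to -0.12 on the log2 scale (adjusted p = 0.454), Ndufa9 at -0.30 (adjusted p = 0.546) and Uqcr10 at -0.26 (adjusted p = 0.574). The median over the 58 genes was -0.07, and it was -0.01 without WT 2.

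The width of the intervals shows what these libraries could resolve, on the assumption of the same spread in every group. The median coefficient of variation was 13.8% in WT, above the 3.97% to 7.83% of the other groups. How much of this was counting noise from the 4834 counts of WT 2 on the 58 genes was not tested. Intervals of comparisons with WT may be too narrow. In hIAPP against WT, the 95% interval of the log2 fold change lay within a 1.5-fold difference in either direction for 54 of the 58 genes (93.1%), against 55.9% of all tested genes. The count was 53 (91.4%) in rIAPP against WT, where 49.4% of all tested genes met it. It was 56 in hIAPP against rIAPP, 57 in hCAST against WT, 57 in hIAPP_hCAST against hIAPP, 56 in hIAPP_hCAST against hCAST and 48 in the interaction. Ndufs5, with its few counts, was outside it in hIAPP against WT with an interval of -1.58 to 0.73. The 58 genes were not matched to the other tested genes by level, so these counts do not set them apart. RNA levels do not measure protein or oxygen consumption.

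Marker genes of the islet cell types moved between the groups. Genes of 10 beta-cell markers held, on the same base as above, 13.6% to 15.7% of the counts in hIAPP, 11.1% to 13% in rIAPP, 12.6% to 16.5% in hIAPP_hCAST, 16.3% to 18.2% in hCAST and 19.8% to 22.9% in WT, and none of the 10 was at 0 in any library. Of these 10 markers, 7 were lower and 0 higher in hIAPP than in WT, and 9 were lower and 0 higher in rIAPP than in WT. The list includes Iapp, which did not pass in either comparison. Whether reads of the rodent IAPP transgene were counted on Iapp, and so in the rIAPP share, was not tested. The 58 respiratory chain genes had medians of 0.08 and 0.04 in the same comparisons, where the beta-cell markers had medians of -0.61 and -1.38 on the log2 scale. Markers of acinar cells, which make digestive enzymes, held 7.38% to 14.5% in hIAPP, 11.5% to 15.3% in rIAPP, 1.19% to 14.9% in hIAPP_hCAST, 4.96% to 10.3% in hCAST and 1.84% to 7.68% in WT. None of the 16 acinar markers was at 0 in any library, and none passed in hIAPP against WT, rIAPP against WT or hIAPP against rIAPP. Of 11 macrophage markers, 9 were higher and 1 lower in hIAPP than in WT, and they held 0.0480% to 0.0602% of counts in hIAPP and 0.0166% to 0.0272% in WT. Of 9 stellate and pericyte markers, 6 were higher in hIAPP than in WT and 7 in rIAPP than in WT, with 0 lower in either. Macrophage markers were higher for 0 of 11 and lower for 1 in rIAPP than in WT. Of 7 endothelial markers, 0 were higher and 1 lower in hIAPP than in WT, and 5 were higher and 0 lower in rIAPP than in WT (Pecam1, Kdr, Plvap, Eng and Tie1). Of 6 alpha-cell markers, 1 was higher in hIAPP than in WT, and 2 were higher and 1 lower in rIAPP than in WT, among them Gc at 2.61 on the log2 scale. The part of these cell types in the levels of the 58 genes was not tested beyond the fits with the acinar level, in which 2 of the 58 genes passed in hIAPP against WT and 1 in rIAPP against WT.

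**Figure D4:**
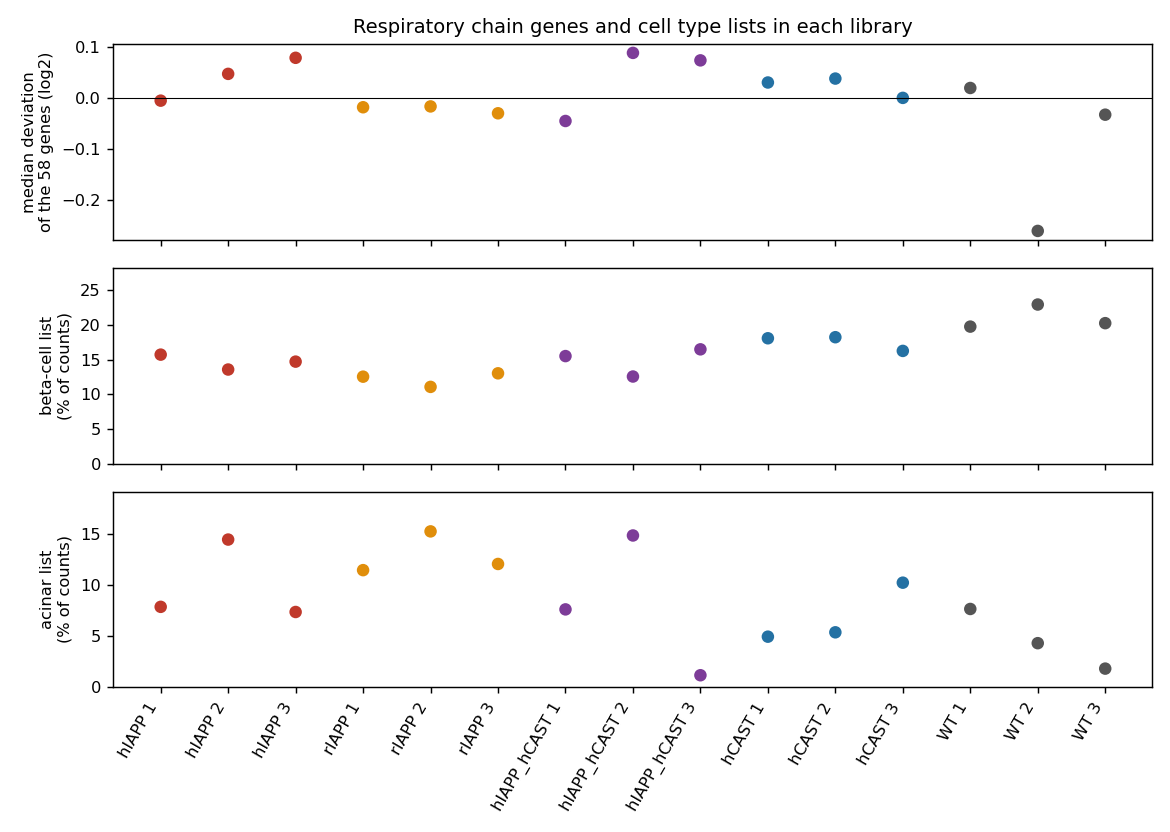
For each of the 15 libraries, the median log2 deviation of the 58 genes from their means over all libraries, and the shares of counts, ribosomal-rich genes set aside, that fell on beta-cell and acinar marker genes. The respiratory chain genes lie between -0.05 and 0.09 in every library other than WT 2, which is at -0.26, while the beta-cell share is highest in the WT libraries.

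Genes that work with the chain were described from lists of the same kind. Of 18 tested genes of ATP synthase, 1 was higher and 0 lower in hIAPP than in WT, and 1 was higher and 1 lower in rIAPP than in WT. The higher gene in hIAPP was 2010107E04Rik (log2 fold change 0.40 ± 0.122, adjusted p = 0.0410), a call that held in 1 of the 6 fits that left out 1 library. Over all alternatives its log2 fold change was as low as 0.02. In rIAPP, Atp5o, a stalk subunit, was higher by 0.27 ± 0.0910 and Usmg5, a small accessory subunit, was at -0.44 ± 0.129, and these calls held in 1 and 3 of 6 such fits. The called shares of this list, 5.56% and 11.1%, stand beside 11.9% and 23.3% of all tested genes. The medians were 0.14 and 0.08.

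Of 40 tested assembly factors, 0 were higher and 1 lower in hIAPP than in WT, and 1 was higher and 4 were lower in rIAPP than in WT. These are 2.5% and 12.5% of the list, against 11.9% and 23.3% of all tested genes. Bcs1l, which inserts the Rieske protein into complex III, was lower in hIAPP (log2 fold change -0.49 ± 0.125, adjusted p = 0.0189), a call held in 3 of 6 fits that left out 1 library. In rIAPP, Cox17, the copper chaperone of complex IV, had 19.6, 18.4 and 18.7 CPM, against 24.5, 23.6 and 25.4 CPM in WT (log2 fold change -0.38 ± 0.0733, adjusted p = 0.00114). The groups did not overlap, and the call held when any 1 library of rIAPP or WT was left out. Cox16 of complex IV was at -0.28, Ttc19 of complex III at -0.26 and Ndufaf6 of complex I at -0.81, and Ndufaf4 of complex I was higher at 0.50. With 1 library left out, the call of Cox16 held in 1 of 6 fits, that of Ttc19 in 2, that of Ndufaf6 in 1 and that of Ndufaf4 in 4. Between hIAPP and rIAPP, 2 assembly factors were lower in hIAPP, namely Ndufaf4 at -0.42 and Timmdc1 at -0.35, both for complex I (5% of the list, against 13% of all tested genes), and these calls held in 3 and 2 of 6 such fits.

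Among 7 tested subunits that the name rule leaves out, 0 passed in hIAPP against WT and 1 in rIAPP against WT. Over all tested genes, 11.9% and 23.3% were called in these comparisons. That gene, Cox7a2l, known for joining complexes III and IV into supercomplexes, had 78.7, 79.2 and 81.4 CPM in rIAPP, against 103, 96.3 and 118 CPM in WT. The groups did not overlap (log2 fold change -0.42 ± 0.0739, adjusted p = 0.000548), and the call held in each of the 6 fits that left out 1 library. Cox4i2, the hypoxia-linked form of subunit IV, was higher in hIAPP than in rIAPP at 0.80 ± 0.211, and that call held in 3 of 6 such fits. That comparison called 13% of all tested genes. Of the stellate and pericyte markers, Pdgfrb at 0.63, Rgs5 at 0.78 and Acta2 at 0.82 were also higher in hIAPP than in rIAPP. Pdgfra, Col1a1, Col1a2, Col3a1, Dcn and Lum did not pass there. The part of these cells in the level of Cox4i2 was not tested.

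The tricarboxylic acid cycle, which supplies NADH and succinate, had 18 tested genes. In hIAPP against WT 0 passed, in rIAPP against WT 1 was higher and 4 were lower, and in hIAPP against rIAPP 2 were higher. The called shares of 27.8% in rIAPP against WT and 11.1% in hIAPP against rIAPP stand beside 23.3% and 13% of all tested genes. Pcx, pyruvate carboxylase, which refills the cycle in beta cells, had 74.4, 53.1 and 79.3 CPM in rIAPP, against 159, 119 and 161 CPM in WT. The log2 fold change was -1.10 ± 0.140 (adjusted p = 5.02e-05), and in hIAPP against rIAPP it was 1.01 ± 0.137 (adjusted p = 0.000138). In hIAPP, Pcx had 150, 132 and 135 CPM and did not pass against WT. Other called genes in rIAPP were Ogdh at -0.24, Suclg1 at 0.37 and, named after its value was seen, Idh2 at -0.33, and Idh2 was higher in hIAPP than in rIAPP at 0.31. With 1 library left out, Pcx kept its call in 6 of 6 fits in both comparisons, Suclg1 in 6, Ogdh in 4, and Idh2 between hIAPP and rIAPP in 1. As measured beside this list, 9 of 10 beta-cell markers were lower in rIAPP than in WT, and the part of cell numbers in these values was not tested.

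Of 11 tested carriers and channels, 0 passed in hIAPP against WT, 2 were higher and 1 lower in rIAPP than in WT, and 1 was higher in hIAPP than in rIAPP. The called shares of 27.3% and 9.09% in the last 2 comparisons stand beside 23.3% and 13% of all tested genes. Vdac1, the main channel of the outer mitochondrial membrane, had 59.7, 54.4 and 56.2 CPM in rIAPP, against 96.0, 89.3 and 105 CPM in WT. All rIAPP libraries lay below all WT libraries (log2 fold change -0.78 ± 0.0731, adjusted p = 1.19e-06). In hIAPP it had 98, 90.9 and 86.1 CPM, which was higher than in rIAPP by 0.69 ± 0.0708 on the log2 scale (adjusted p = 4.76e-06). Slc25a3, the phosphate carrier, was at 0.33 and Vdac3 at 0.22 in rIAPP against WT. With 1 library left out, Vdac1 kept its call in 6 of 6 fits in both comparisons, Slc25a3 in 3 and Vdac3 in 1.

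Of 8 tested genes linked to cytochrome c and ubiquinone, 0 passed in hIAPP against WT, 1 was higher and 1 lower in rIAPP than in WT, and 1 was higher in hIAPP than in rIAPP. These were Etfb, an electron transfer flavoprotein subunit, at 0.40, and Sqrdl, which oxidises sulfide and reduces ubiquinone, at -0.29 in rIAPP against WT and 0.33 in hIAPP against rIAPP. With 1 library left out, Etfb kept its call in 1 of 6 fits, and Sqrdl in 2 and 4. The called shares of 25% and 12.5% stand beside 23.3% and 13% of all tested genes. Of 19 tested regulators of mitochondrial biogenesis, 1 was higher in hIAPP than in WT, 3 were higher in rIAPP than in WT, and 1 was lower in hIAPP than in rIAPP, shares of 5.26%, 15.8% and 5.26% against 11.9%, 23.3% and 13% of all tested genes. Pprc1, a coactivator related to PGC-1, was higher in hIAPP at 0.55 ± 0.168 and in rIAPP at 0.66 ± 0.171, calls that held in 1 and 5 of 6 fits that left out 1 library. Ppara, a nuclear receptor that controls fatty acid oxidation, had 3.22, 3.77 and 3.48 CPM in rIAPP, against 1.4, 0 and 0.848 CPM in WT (log2 fold change 1.64 ± 0.383, adjusted p = 0.00517). In hIAPP it had 1.21, 1.16 and 1.37 CPM, lower than in rIAPP by -1.47 ± 0.326 on the log2 scale. Nrip1, a corepressor of mitochondrial genes, was at 0.28 in rIAPP against WT, a call held in 2 of 6 such fits, and both calls of Ppara held in 6 of 6. The levels of Ppara in WT were low, with 0 CPM in WT 2. With WT 1 as the only WT library and rIAPP 2 left out, its log2 fold change in rIAPP was 1.23, which supports nothing on its own. In hCAST against WT, hIAPP_hCAST against hIAPP, hIAPP_hCAST against hCAST and the interaction, 0 genes of these lists passed. On the FPKM scales the signs of Bcs1l in hIAPP against WT, of each gene named as lower in rIAPP against WT (Idh2 was not rerun there), and of Ndufaf4 and Timmdc1 in hIAPP against rIAPP turned, on scales where the median of all tested genes is itself shifted.

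**Figure D5:**
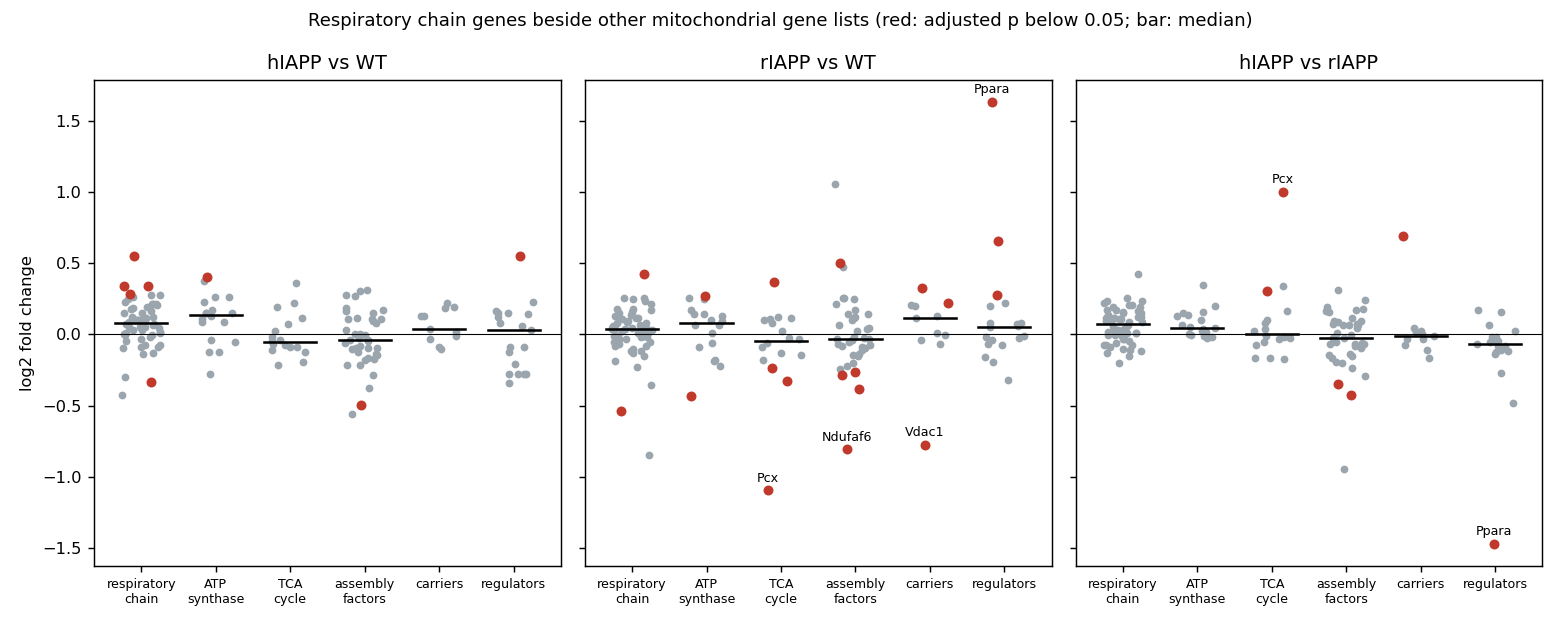
Log2 fold change of 57 of the 58 respiratory chain genes and of genes of 5 other mitochondrial lists in hIAPP against WT, rIAPP against WT and hIAPP against rIAPP; red points have an adjusted p below 0.05, bars are medians of the whole lists, and called genes beyond 0.7 in size are named. Pcx and Vdac1 are low in rIAPP against WT and high in hIAPP against rIAPP, while the respiratory chain genes lie around 0 in all 3 panels. On log2 of FPKM + 0.1, Pcx at 0.34 and Vdac1 at 0.67 in rIAPP against WT are positive but below the median of 1.27 over all tested genes.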

How the data were processed

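Bulk islet RNA was measured in 15 libraries, 3 per group. RNA was extracted with the RNeasy Mini Kit and libraries used ribosomal depletion, per the labels' protocols. The authors aligned reads with STAR and counted them with HTSeq on GRCm38/mm10, per the submitters' processing notes; the annotation, strand setting and treatment of reads with several matches are unknown here. The deposited table of raw counts was the base of every main test. The FPKM values were deposited by the authors beside the counts, and their denominators hold the ribosomal reads; they served for gene lengths and for 2 alternatives.

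Genes passing filterByExpr (15460) were scaled by TMM and tested two-sided with edgeR 4.0.16 in R 4.3.3, by the quasi-likelihood test with robust dispersion on all 15 libraries, and p-values were adjusted by Benjamini-Hochberg over all tested genes, with a call at an adjusted p below 0.05. CPM are TMM-scaled, errors of log2 fold changes are SE, and intervals are 95%. The script was tested on simulated data. No column lacked a sample.

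Text names, per complex and direction, up to 4 called genes of smallest p, or the 3 smallest p where none was called, the highest and lowest gene of each complex per kilobase, and up to 4 called genes of each further list. A few results are not reported here. The genes and lists were chosen with earlier results of these data known. Alternatives were DESeq2 1.42.0, RLE scaling, no filter, limma 3.58.1 on log2(FPKM + 1) and log2(FPKM + 0.1), only the compared groups, scaling without the ribosomal-rich genes, leaving out the 3 ribosomal-rich libraries or each library in turn, the acinar level as a covariate, hCAST in place of WT and, added after the data had been seen, limma-voom with library weights. Promoters came from RefSeq (GRCm38.p6), gene positions and overlaps from GENCODE on GRCm38.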

Additional observations from a re-analysis of the deposited data

How the results depend on the processing

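No paired analysis was possible because the groups share no replicate numbers in the labels. Of 879 values of 52 named gene results under the alternatives, 624 kept direction and side of the threshold, 212 no longer passed, 13 newly passed and 30 turned sign, all 30 on the FPKM scales, whose denominators hold the ribosomal reads. In the order log2(FPKM + 0.1) then log2(FPKM + 1), the log2 median over all tested genes was 1.82 and 1.26 in hIAPP against WT, 1.27 and 0.80 in rIAPP against WT, and 0.53 and 0.40 in hIAPP against rIAPP. In the same order the median of the 58 genes was 2.10 and 1.93 in hIAPP against WT, 1.51 and 1.35 in rIAPP against WT, 0.63 and 0.60 in hIAPP against rIAPP, 2.09 and 1.94 in hCAST against WT, and -2.06 and -1.86 in the interaction. The count of the 58 genes called was 55 and 55 in hIAPP against WT, 0 and 0 in rIAPP against WT, and 56 and 56 in hCAST against WT, where 77.7% and 81.2%, 4.65% and 5.3%, and 86.1% and 85% of all tested genes were called. The signs that turned were, in hIAPP against WT, Bcs1l (1.38 and 0.92) and Cox6c (1.64 and 1.60). In rIAPP against WT they were Cox16 (1.08 and 0.80), Cox17 (1.06 and 0.98), Cox6c (0.88 and 0.85), Cox7a2l (1.03 and 0.98), Ndufaf6 (0.66 and 0.21), Ogdh (1.19 and 1.05), Pcx (0.34 and 0.25), Sqrdl (1.15 and 0.87), Ttc19 (1.10 and 0.79), Usmg5 (0.95 and 0.91) and Vdac1 (0.67 and 0.60). In hIAPP against rIAPP they were Ndufaf4 (0.12 and 0.074) and Timmdc1 (0.19 and 0.16). In hIAPP against WT, 2 of the 58 genes were called with the acinar covariate, 0 with hCAST in place of WT, 3 without the filter, 1 with only the compared groups and 0 without the 3 ribosomal-rich libraries, which leaves 1 WT library, assumed to vary like the other groups. The shares of all genes called were 11.3%, 7.19%, 7.54%, 11.3% and 2.39% in the same order. In rIAPP against WT, 1 was called with the acinar covariate and 0 without those libraries, where the median was -0.064, beside 22.6% and 9.53% of all genes. In hIAPP against rIAPP, 1 was called with the acinar covariate, 1 by DESeq2, 4 by limma-voom with weights, 3 with only the compared groups and 1 without those libraries, beside 17.3%, 14%, 22.5%, 18.7% and 8.49% of all genes. The cause of these changes was not tested. Leaving out 1 library at a time gave 0 to 8 calls in hIAPP against WT, 1 to 6 in rIAPP against WT and 0 in the other comparisons. The median of the 58 genes then spanned 0.04 to 0.11 in hIAPP against WT, -0.00 to 0.09 in rIAPP against WT, 0.05 to 0.10 in hIAPP against rIAPP and 0.01 to 0.11 in hCAST against WT. It spanned -0.01 to 0.06 in hIAPP_hCAST against hIAPP, -0.02 to 0.06 in hIAPP_hCAST against hCAST and -0.11 to -0.01 in the interaction. With 4834 counts on the 58 genes, WT 2 limits the precision of every comparison with WT.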
